A study of Homo sapiens with 4 samples.

Results

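The skipped exons of 10 microtubule and spindle genes (PRC1, TROAP, CEP57, CLIP1, TBCE, NUMA1, MAP4, CKAP5, CLASP1 and TPX2) were described in MDA-LM2 cells, a lung-metastatic derivative of the human breast cancer line MDA-MB-231. An exon belonged to a gene when its coordinates and strand matched a GENCODE exon of that gene, or when the exons on both sides of it did. This gave 93 events, each an exon with its neighbours, at 79 different exons, of 45977 events at 39120 exons in all. The genes were chosen by the Ψ values of these same pools, that is, with the difference between the groups in view, so every count over them is a description and no test is attached. Cells were transfected by lipofection with an RNA called the SSE mimetic or, as the control, with a scrambled oligo, and total RNA was sequenced. Each group had 2 labelled samples (4 in all), and nothing in the labels says whether these came from separate cultures. The deposited tables hold 1 set of values per group, so no spread between samples can be given. They are called the mimetic pool (SSE mimetic) and the control pool (scrambled oligo), and paired values are given in that order. Everything else about the cells was shared by the groups as far as the labels state it.

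Microtubules are polymers of tubulin that carry cargo between divisions and form the mitotic spindle during them. Chaperones such as TBCE fold tubulin, proteins such as CKAP5, CLASP1 and CLIP1 act at the growing plus end, MAP4 lies along the lattice, and TPX2, NUMA1, TROAP, CEP57 and PRC1 work in the spindle. Many of these genes have alternative exons, which can change a protein's sequence or, where the exon brings a stop codon, the fate of its mRNA.

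Ψ, or percent spliced in, is given as a fraction, the authors' estimate of how often an exon is kept rather than skipped, with its 95% credible interval in parentheses. It rests on inclusion reads, which match only the form with the exon, on skipping reads, which match only the form without it, and on shared reads, which match both and come from the neighbouring exons. Inclusion and skipping reads are together termed isoform-specific, and an exon was tested with at least 10 of them in the mimetic pool and at least 10 in the control pool. A call needed a Bayes factor (from the authors' comparison, how much more the reads favour a difference than none) of 10 or more and a difference in Ψ of 0.1 or more.

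Several of the called exons are longer forms of a shorter annotated exon, and their sequences are shown because the added bases are what distinguishes the forms. All are written 5′ to 3′ on the transcript strand from GENCODE transcripts on hg38, with the bases beyond the shorter form in capitals. The first lies at chr15:90983906-90984140 on the minus strand, the second at chr1:235438769-235438988 on the plus strand and the third at chr12:49325501-49325658 on the plus strand.
PRC1 235-nt exon: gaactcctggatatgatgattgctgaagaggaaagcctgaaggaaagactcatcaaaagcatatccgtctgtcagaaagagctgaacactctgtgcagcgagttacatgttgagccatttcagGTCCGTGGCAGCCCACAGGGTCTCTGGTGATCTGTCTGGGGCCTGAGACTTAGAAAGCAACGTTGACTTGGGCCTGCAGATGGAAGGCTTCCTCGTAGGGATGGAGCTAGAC
TBCE 220-nt exon: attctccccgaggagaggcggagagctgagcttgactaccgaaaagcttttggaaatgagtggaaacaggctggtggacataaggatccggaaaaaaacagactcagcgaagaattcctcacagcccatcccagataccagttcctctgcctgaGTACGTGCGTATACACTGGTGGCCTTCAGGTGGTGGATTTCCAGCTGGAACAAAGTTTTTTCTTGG
TROAP 158-nt exon: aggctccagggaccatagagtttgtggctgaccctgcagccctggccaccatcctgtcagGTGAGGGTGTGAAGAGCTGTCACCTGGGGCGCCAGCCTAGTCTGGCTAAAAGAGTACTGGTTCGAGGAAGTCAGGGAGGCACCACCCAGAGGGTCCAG

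In each of these exons the added stretch begins with GT, the letters at which most introns begin. The PRC1 form adds 112 bases to a 123-nt exon, and the added bases have a GC content of 58.0% against 44.7% in the shorter form. Read in the frame of the shorter coding exon, the PRC1 form meets a TGA stop codon at base 151 of the exon, which is base 28 of the added stretch. The TBCE form adds 66 bases to a 154-nt exon. Another TBCE form, of 158 nt, ends after the first 4 of those bases, GTAC, and the next 2 bases are again GT. No in-frame stop codon was found in the 220-nt TBCE exon. The TROAP exon has a shorter annotated form of 60 nt and 98 bases beyond it. Here the longer form is the coding one, in 3 protein-coding transcripts. GENCODE lists the 60-nt form only in transcripts classed as nonsense-mediated decay, and its event had no isoform-specific read in either group.

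Of the 79 exons, 33 were tested. Among the other 46, 25 fell short of that number in the mimetic pool only, 21 in both pools and 0 in the control pool only. Called exons numbered 10, of which 9 were higher in the mimetic pool, in PRC1 (3), TBCE (3), TROAP, CEP57 and CLIP1, and 1 was lower, in MAP4. Over all 8228 tested exons of the series, 3.1% were called higher and 0.887% lower. The credible intervals of the groups were apart in 10 of the 33 exons, the same 10 that were called, against 5.87% of all tested exons. Since the genes were picked for such differences, these shares say nothing about microtubule genes in general. Because some of the called exons overlap, the 10 lie in 8 separate stretches of the genome in 6 genes. The 23 tested exons that were not called had a median difference in Ψ of 0.03. The median tested exon of the 10 genes had 22 and 105 isoform-specific reads and credible intervals 0.33 and 0.09 wide, so the mimetic pool limits what could be called.

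**Figure D1:**
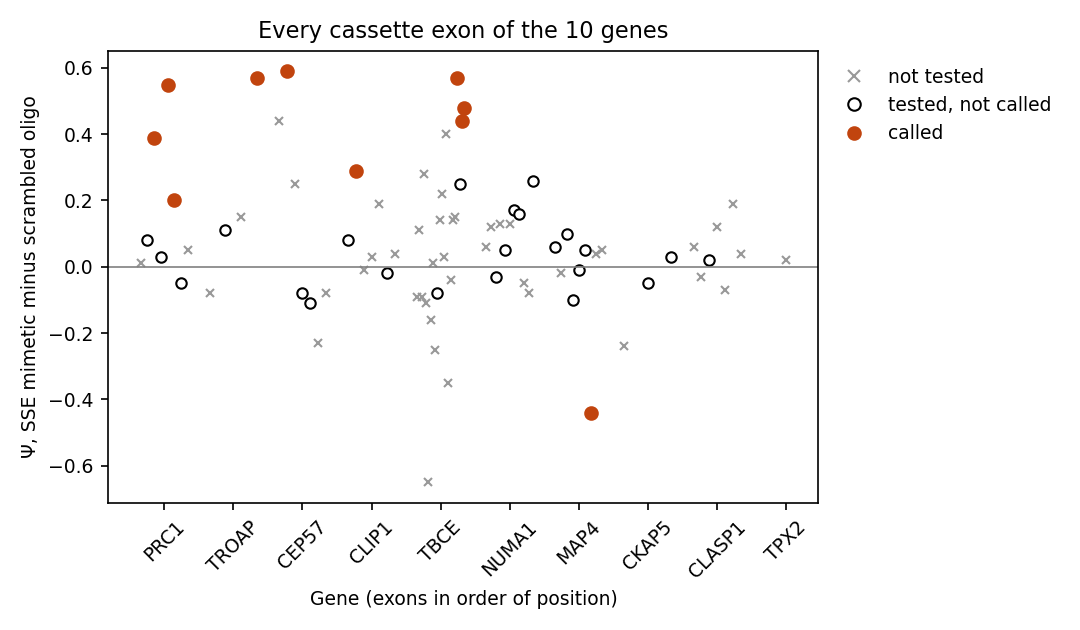
Difference in Ψ (SSE mimetic minus scrambled oligo, vertical axis) for each of the 79 exons by gene, in order of genome position within a gene. Filled circles are called exons, open circles are tested exons that were not called and crosses are exons with too few reads; called exons lie above 0 in 5 genes and below 0 in MAP4 only.

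**Figure D2:**
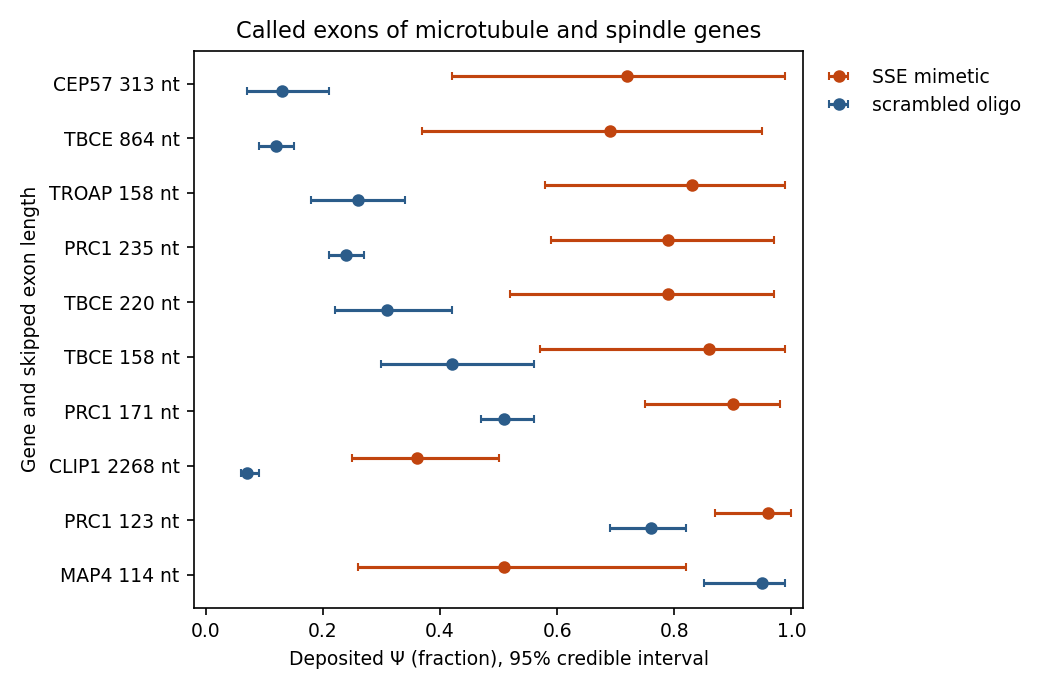
Ψ of the 10 called exons (horizontal axis, fraction), 1 value for either pool. Points are the authors' values and bars their 95% credible intervals, which do not meet in any of the 10 exons; the mimetic bars are the wider in 9 exons and equal in width in 1, the 123-nt PRC1 exon.

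PRC1, which bundles antiparallel microtubules in the spindle midzone and is needed for cytokinesis, had 6 tested exons and 3 calls, all higher. The 235-nt form printed above had a Ψ of 0.79 (0.59 to 0.97) in the mimetic pool and 0.24 (0.21 to 0.27) in the control pool. In GENCODE this form is found only in a transcript classed as a retained intron. The shorter, coding 123-nt form, at chr15:90984018-90984140, had 0.96 (0.87 to 1.00) and 0.76 (0.69 to 0.82). A further coding exon of 171 nt, at chr15:90981499-90981669, had 0.90 (0.75 to 0.98) and 0.51 (0.47 to 0.56). By the authors' estimate the Ψ of each of these exons was higher in the mimetic pool, although no skipping read was seen for any of them in either group. Each Ψ is estimated against skipping in its own event, and the 235- and 123-nt forms exclude each other in a transcript. These values are therefore not shares of all PRC1 transcripts. Reads in the bases that only the 235-nt form has were not counted on their own.

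The reads behind those PRC1 values differed mainly in the shared class. The 235-nt form had 56 inclusion and 82 shared reads in the mimetic pool, and 348 and 1836 in the control pool. Shared reads were therefore 22.4 times and inclusion reads 6.21 times as many in the control pool. For the 171-nt exon the corresponding ratios were 17.1 and 8.29, from 69 inclusion and 118 shared reads against 572 and 2016. Reads inside the 123 bases that the overlapping forms have in common count as inclusion reads for either form, and a 234-nt exon is a neighbour of all 3 called exons, so these are not independent observations. With no skipping read among 56 and 348 isoform-specific reads, a limit of 3 reads allows a skipping share of up to 5.36% and 0.862% for the 235-nt form, counting error only.

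The other tested PRC1 exons were not called. A 124-nt exon was almost always skipped, with Ψ of 0.03 (0.00 to 0.08) and 0.00 (0.00 to 0.01) and 20 and 279 skipping reads. The 133-nt and 111-nt exons were mostly kept in both groups, at 0.90 and 0.95 for the former and at 0.90 and 0.82 for the latter. In another event of the 133-nt exon, with fewer isoform-specific reads, the difference was 0.34 in place of -0.05, the opposite direction. The 123-, 171-, 111- and 133-nt exons are also annotated as exons of the locus AC068831.7, and the 235-nt form overlaps an exon of it. Reads of the 2 annotations cannot be told apart.

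TROAP, the trophinin-associated protein, which is needed for spindle assembly, had 2 tested exons. The 158-nt coding exon printed above was called higher, with a Ψ of 0.83 (0.58 to 0.99) in the mimetic pool and 0.26 (0.18 to 0.34) in the control pool. It had 23 inclusion and 26 shared reads against 44 and 236, and no skipping read in either group. Inclusion reads were 1.91 times and shared reads 9.08 times as numerous in the control pool. A 193-nt exon of the gene, at 0.60 (0.34 to 0.95) and 0.49 (0.39 to 0.61), was not called.

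CEP57, a centrosomal protein that binds microtubules, had the largest difference of the 10 called exons, at a 313-nt exon on chr11:95794221-95794533. Its Ψ was 0.72 (0.42 to 0.99) in the mimetic pool and 0.13 (0.07 to 0.21) in the control pool. The exon is not itself annotated in GENCODE and was given to CEP57 through its neighbours. It had 15 inclusion reads in each group, while shared reads numbered 23 and 137 and skipping reads 0 and 2. After the read density of the flanking introns was subtracted, no inclusion read was left in either group and the exon was no longer called (recomputed difference 0.407, Bayes factor 0.61). The mimetic pool then had no isoform-specific read and the control pool only its 2 skipping reads. The value of 0.407 therefore has little weight as an estimate. The overlapping 157- and 152-nt exons further downstream were kept in nearly all transcripts, with Ψ of 0.91 and 0.99 for the longer and 0.88 and 0.99 for the shorter, and were not called.

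CLIP1, the plus-end tracking protein CLIP-170, has a 2268-nt coding exon at chr12:122322114-122324381 on the minus strand that GENCODE lists in 1 transcript. The junction into it is printed because it is the site at which the exon is joined or passed over, with 30 bases of the 216-nt upstream exon in lower case and the first 30 bases of the skipped exon in capitals.
CLIP1 upstream junction: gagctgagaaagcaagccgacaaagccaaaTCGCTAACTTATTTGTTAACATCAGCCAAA

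This exon was called higher, at 0.36 (0.25 to 0.50) in the mimetic pool and 0.07 (0.06 to 0.09) in the control pool. It is the called exon with the most skipping reads, 2 and 38, beside 129 and 186 inclusion reads and 40 and 240 shared reads. Among isoform-specific reads the inclusion share was 0.985 (95% Clopper-Pearson interval 0.946 to 0.998) and 0.830 (0.775 to 0.877). The share is far above Ψ in both groups. A long exon collects many more reads than a junction, which Ψ allows for, and Ψ also uses the shared reads. The difference recomputed from the reads was 0.281, and 0.150 once the density of intron reads was taken off, still called. A 6-nt CLIP1 exon, at 0.10 and 0.02, had no inclusion read and 12 and 80 skipping reads, and a 198-nt exon stood at 0.96 and 0.98. Neither was called.

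TBCE, a tubulin-folding cofactor that acts on alpha-tubulin, had the most exons, 22, of which 5 were tested and 3 called, all higher. GENCODE lists it under 2 gene identifiers. An 864-nt exon at chr1:235435745-235436608, found in transcripts classed as nonsense-mediated decay or retained intron, had a Ψ of 0.69 (0.37 to 0.95) in the mimetic pool and 0.12 (0.09 to 0.15) in the control pool. The 220-nt coding form printed above had 0.79 (0.52 to 0.97) and 0.31 (0.22 to 0.42). The 158-nt form, annotated in a nonsense-mediated decay transcript, had 0.86 (0.57 to 0.99) and 0.42 (0.30 to 0.56). Each Ψ is estimated against skipping in its own event, and the 158- and 220-nt forms exclude each other in a transcript, so these values are not shares of all TBCE transcripts.

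The TBCE calls rest on few reads and are not independent of each other. Their shared reads were 12 and 122 in each case, and a 153-nt exon is a neighbour of all of them. The 864-nt exon had 43 and 78 inclusion reads, and the 158- and 220-nt forms each had 19 and 54, so these reads did not separate the forms. The 62 bases of the 220-nt form beyond the 158-nt form brought no net inclusion read in either group. The 154-nt form, without any of the added bases, had more inclusion reads, 20 and 69. No skipping read was seen in either group for any of the called TBCE exons. For the 864-nt exon the recomputed difference of 0.563 became 0.393 once the density of intron reads was taken off.

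The criteria separated the overlapping TBCE forms. The authors' deposited table gives Bayes factors of 14.23 for the 158-nt form and of 19.69 for the 220-nt form, the lowest of the 10 called exons. The main 154-nt form, which has 20 and 69 inclusion reads and lies in 12 protein-coding transcripts, had a Ψ of 0.81 (0.54 to 0.98) and 0.56 (0.41 to 0.76). With 1.42 in the authors' deposited table it lay outside the criteria. So did a 190-nt exon of NUMA1, with 1.53 in the authors' deposited table, the highest Bayes factor among tested exons of the 10 genes that were not called. A 186-nt TBCE exon stood at 0.90 and 0.98 and was not called.

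A 131-nt TBCE exon at chr1:235380019-235380149 went the other way. Its Ψ was 0.29 (0.11 to 0.53) in the mimetic pool and 0.94 (0.83 to 0.99) in the control pool. It had only 4 inclusion reads in the mimetic pool, against 71, and 46 and 136 shared reads, so it was not tested although it passed the Bayes factor and the size. It was the sole untested exon of the 10 genes that did. GENCODE places it in 56 transcripts of the gene.

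MAP4, the main microtubule-associated protein of non-neuronal cells, had the sole exon called lower. It is printed in full because it is coding, keeps the reading frame and overlaps no other annotated exon of the gene. It lies at chr3:47921765-47921878 on the minus strand, and no base is in capitals.
MAP4 114-nt exon: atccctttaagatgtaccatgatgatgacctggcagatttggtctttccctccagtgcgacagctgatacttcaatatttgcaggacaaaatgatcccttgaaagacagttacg

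Its Ψ was 0.51 (0.26 to 0.82) in the mimetic pool and 0.95 (0.85 to 0.99) in the control pool. It had 14 inclusion and 45 shared reads against 105 and 97, and no skipping read in either group. Here inclusion reads were 7.50 times and shared reads 2.16 times as many in the control pool, the reverse order of the 9 exons called higher. With no skipping read, this order restates the lower Ψ of the exon. The authors' deposited table gives it a Bayes factor of 70.63. Recomputed from the same reads with a 2-isoform likelihood it was 8.24, which does not meet the criteria, while the recomputed difference was as large, at -0.448.

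The other 5 tested MAP4 exons were not called. A 3384-nt exon was mostly skipped in both groups, at 0.18 (0.14 to 0.24) and 0.13 (0.11 to 0.15), with 244 and 600 inclusion reads and 22 and 72 skipping reads. A second 114-nt exon, at chr3:47869214-47869327, stood at 0.91 and 0.81. The 60-, 190- and 216-nt exons were kept in most transcripts, with Ψ between 0.75 and 0.98.

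NUMA1, which links spindle poles to the cell cortex through dynein, had 5 tested exons and no call. Its 3366-nt exon, which is large enough to collect 1039 and 3206 inclusion reads, stood at 0.95 (0.86 to 1.00) and 0.98 (0.95 to 1.00). The largest difference was at a 190-nt exon, chr11:72076568-72076757, listed in a protein-coding transcript but with no coding base. Its Ψ was 0.43 (0.19 to 0.68) and 0.17 (0.08 to 0.30), on 6 inclusion reads in each group and 4 and 15 skipping reads. It was not called, and its inclusion reads per kb, 31.6 in each group, were below the 57.6 and 74.2 of its introns. The recomputed difference of 0.268 became 0.0861 once the density of intron reads was taken off. The 172-, 153- and 127-nt exons had wide intervals on at most 25 isoform-specific reads a group, and the last 2 of these overlap.

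CKAP5, the XMAP215-family polymerase that adds tubulin at plus ends, had 2 tested exons and no call. Its 180-nt coding exon, at chr11:46754888-46755067, was kept at 0.94 (0.81 to 1.00) and 0.99 (0.98 to 1.00). A 24-nt exon was skipped at 0.04 (0.00 to 0.15) and 0.01 (0.00 to 0.02), with no inclusion read and 24 and 145 skipping reads. CLASP1, which stabilises plus ends, likewise has a 24-nt exon that was mostly skipped, at 0.14 (0.03 to 0.34) and 0.12 (0.02 to 0.28), on 1 and 2 inclusion reads and 10 and 17 skipping reads. These short exons are printed side by side because each changes the protein by a few residues, in frame, and their skipping is read directly from junctions. They lie on the minus strand at chr11:46760352-46760375 and chr2:121409024-121409047, with no base in capitals.
CKAP5 24-nt exon: aattatgtatcgcacttataggat
CLASP1 24-nt exon: ctgttaggagactccaggagcaag

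The CKAP5 exon has a GC content of 29.2% and the CLASP1 exon one of 54.2%. TPX2, which activates Aurora A kinase and nucleates spindle microtubules, had a single cassette exon, of 108 nt at chr20:31780939-31781046. It was not tested, with 2 isoform-specific reads in the mimetic pool and 31 in the control pool. Its Ψ was 0.03 (0.00 to 0.10) and 0.01 (0.00 to 0.02), that is, close to full skipping in both groups.

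Across the 33 tested exons, the direction of the difference followed the level in the control pool. All 10 exons with a control Ψ of at least 0.9 were lower in the mimetic pool, with a median difference of -0.065. The other 23 exons, with a lower control Ψ, were all higher, with a median of 0.17. Over all tested exons the first group had 3752 of 3965 exons below 0 and a median of -0.07, much like the members. In the second group 2656 of 4263 exons were above 0, with a median of 0.03. The control value enters both the level and the difference, so this order is a description of the estimates.

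**Figure D3:**
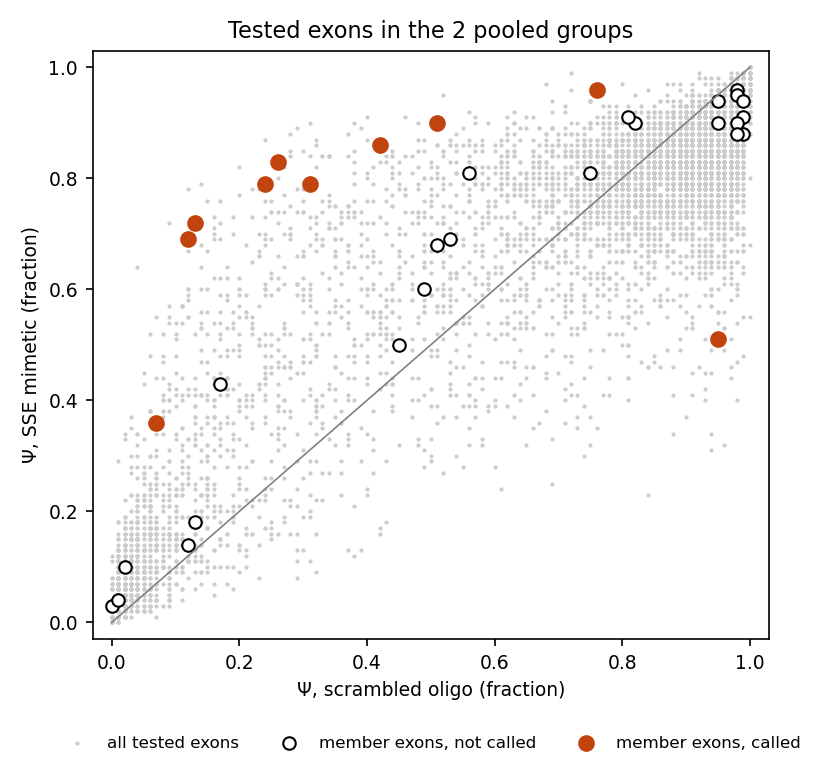
Ψ in the control pool (horizontal axis) against Ψ in the mimetic pool (vertical axis), both as fractions, for tested exons. Grey points are all 8228 tested exons, open circles the 23 member exons not called and filled circles the 10 called; the line marks equal values, and 9 of the called exons lie above it.

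The classes of reads differed in ratio between the pools. Over the 33 exons the control pool had 9.1 times as many shared reads, 3.76 times as many inclusion reads and 1.82 times as many reads matching neither form. Over all tested exons these ratios were 4.61, 4.66 and 1.89. Reads of a neighbouring exon count once for each event they border, and PRC1 holds most of the shared reads in the control pool. Without its 6 exons, a comparison chosen after seeing the data, the ratios over the other 27 exons were 4.61, 3.26 and 1.58. In all 9 exons called higher, the ratio for shared reads (5.96 to 22.4) was above that for inclusion reads (1.00 to 8.29). No skipping read was present in either group for 8 of the 10 called exons, against 91 of the 328 called over the whole series. The same held for 19 of the 33 tested exons and 4509 of all 8228. In the 8 called exons the inclusion share was 1 in both groups, so Ψ differs there only through the balance of inclusion and shared reads. The order of the ratios in those exons thus restates the direction of the call. CEP57 and CLIP1 were the called exons with an inclusion share that was larger in the mimetic pool.

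**Figure D4:**
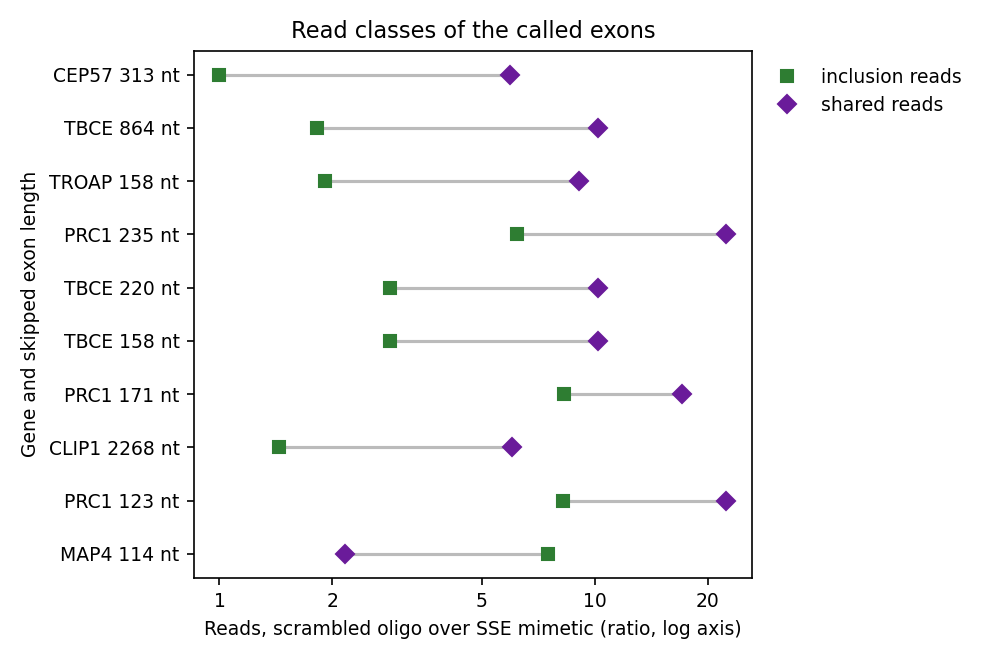
Ratio of reads in the control pool to reads in the mimetic pool (horizontal log axis) for each of the 10 called exons. Squares are inclusion reads and diamonds shared reads; diamonds lie to the right of squares in the 9 exons called higher and to the left in the MAP4 exon. In exons without a skipping read this order restates the direction of the call.

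Reads in the flanking introns were set beside the inclusion reads, per kb, because unspliced RNA in a skipped exon would be counted as inclusion. For CEP57 the exon had 47.9 inclusion reads per kb in each group, below the 73.8 and 108 reads per kb of its introns. For CLIP1 the exon had 56.9 and 82.0 against 37.1 and 70.9 in the introns. For TROAP it had 146 and 278 against 80.6 and 343. The 864-nt TBCE exon had 49.8 and 90.3 against 34.0 and 87.7. Per kb of exon, these 4 exons thus stood near or below the intron level in at least one group. The comparison per kb is not the same measure as the subtraction of intron density. TROAP lay below its introns per kb in the control pool. After the subtraction, 15.5 of its 44 inclusion reads were still left there. With intron reads taken off, the recomputed difference of TROAP rose from 0.60 to 0.74. Those of CEP57, CLIP1 and the 864-nt TBCE exon fell, that of CEP57 with no isoform-specific read left in the mimetic pool. In PRC1 it rose from 0.588 to 0.610 for the 235-nt form and from 0.395 to 0.463 for the 171-nt exon. For the 123-nt PRC1 form it went from 0.209 to 0.201. The 235-nt PRC1 form had 238 and 1481 inclusion reads per kb against 75.1 and 457, and the MAP4 exon had 123 and 921 against 41.2 and 68.4. Inclusion reads per kb were below those of the introns for 7 of the 33 tested exons in the mimetic pool and for 6 in the control pool. Both counts include the 124-nt PRC1, 6-nt CLIP1 and 24-nt CKAP5 exons, which were mostly skipped. The counts are therefore no measure of intron reads alone. The part of intron reads in the differences was measured only by the subtraction given above, and the part of the unequal depth was not tested.

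**Figure D5:**
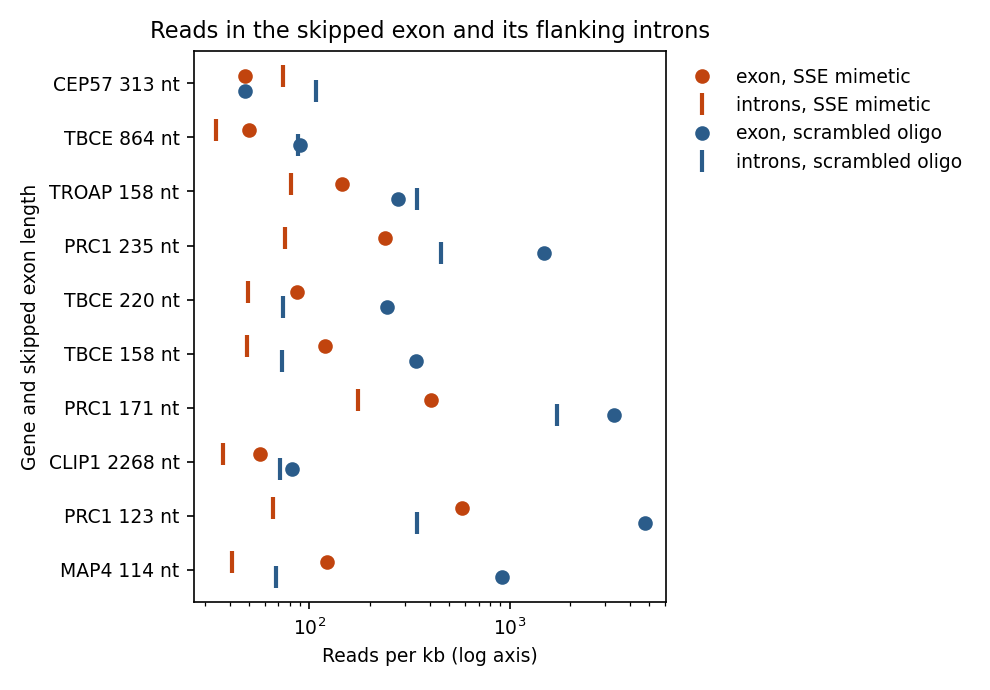
Reads per kb (horizontal log axis) in the skipped exon (circles, inclusion reads) and in its flanking introns (vertical marks, reads matching neither form) for the 10 called exons in each group. The CEP57 circles lie left of their marks in both groups and the TROAP circle in the control pool, while the PRC1 and MAP4 circles lie to the right.

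Of the 10 called exons, 8 overlap another annotated exon of their gene, as did 15 of the 23 not called and 63.2% of all tested exons. Exon length was a multiple of 3 in 5 of the 10 called exons and 13 of the 23 others, against 41.3% of all tested exons.

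A wider set of 225 genes in 5 lists (tubulins and tubulin folding, lattice and plus-end proteins, spindle assembly and midzone, centrosome, kinetochore and checkpoint) served as the surroundings of the 10 genes, which it leaves out. It had 189 tested exons in 99 genes. Of these, 7 were called higher, 2 lower and 180 not, and the median difference was -0.04, against -0.03 over all tested exons. By role, calls were 0 of 16 exons for tubulins, 2 of 38 for lattice proteins, 4 of 45 for the spindle, 1 of 55 for the centrosome and 2 of 35 for the kinetochore. In all 4.76% of these exons were called, close to the 3.99% called in either direction over all tested exons.

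Among plus-end and motor-related genes, NDEL1, a dynein regulator, had an exon at 0.73 (0.39 to 0.95) and 0.24 (0.16 to 0.34). DYNC1H1, the dynein heavy chain, had one at 0.62 (0.43 to 0.82) and 0.30 (0.26 to 0.35). In the spindle list TACC2 was at 0.74 and 0.30 and ECT2, the RhoA activator of cytokinesis, at 0.23 and 0.06. These were all called higher. ANLN, which encodes anillin of the cleavage furrow, was called lower, at 0.64 (0.47 to 0.81) and 0.99 (0.96 to 1.00), as was NUSAP1 at 0.57 and 0.92. The ANLN and DYNC1H1 exons had no skipping read in either group. Their Ψ therefore differs only through the balance of inclusion and shared reads. Single exons of the centrosomal gene CEP170 (0.72 and 0.32) and of the kinetochore genes CENPC (0.88 and 0.54) and SPDL1 (0.57 and 0.23) were called higher. The CEP170 exon had 103 and 214 inclusion reads per kb, below the 352 and 1263 of its introns. The ECT2 exon had 41.2 and 74.9 against 41.4 and 134. With intron reads taken off, 5 of the 7 exons called higher were still called, and those of NDEL1 and CEP170 were not, with Bayes factors of 1.72 and 1.0. The CEP170 and ANLN exons already missed the criteria in the recomputation without that step, with Bayes factors of 8.04 and 8.33.

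The labelled cell line was checked through reads in the events of marker genes. CD44, AXL, FN1 and LGALS1, of mesenchymal-like breast cancer cells, had 4205, 226, 154 and 230 isoform reads in the mimetic pool. The control pool had 39589, 1090, 999 and 546. Of epithelial markers, KRT8 had 504 and 1521 and CDH1 38 and 81. Leukocyte and endothelial markers with events ranged from 2 to 43 reads and from 13 to 63. EPCAM, KRT18, KRT19, VIM and PECAM1 had no event and give no value. These are reads in cassette-exon events, not expression levels, and their part in the results was not tested.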

How the data were processed

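RNA was sequenced from MDA-LM2 cells after transfection of a scrambled oligo or the SSE mimetic (2 labelled samples each). Libraries were made with ScriptSeq v2, per the labels' protocols. The aligner was STAR 2.7 and the build hg38, per the submitters' processing notes. Per the file headers, the deposited tables are MISO skipped-exon summaries. The deposited Ψ and its credible bounds are fractions computed by the authors. The deposited Bayes factor is a ratio, capped by the authors' program at 1e12, and the deposited difference is Ψ with the SSE mimetic minus Ψ with the scrambled oligo. Reads per class are in other units, as text, in the deposited tables. Not given in the sources used here are MISO's version, its event set and how samples were combined.

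Events were matched to GENCODE release 29 and those with the same skipped exon reduced to the one with most isoform-specific reads. Median isoform-specific reads per tested exon were 19 (SSE mimetic) and 78 (scrambled), and intervals and limits cover counting error only. A 2-isoform likelihood with a read length of 76 nt recomputed Ψ with and without subtraction of the flanking intron density. It was tried on reads simulated from that same model without intron reads, so the trial checks the computation only and does not cover the subtraction. Alternatives varied the read minimum, Bayes factor, size, event choice and measure, and sums of reads were also taken without PRC1, chosen after seeing the data. Named exons were every called exon of the 10 genes, the largest difference in genes without a call, untested exons passing the other criteria, and, in each of 5 lists, at most 3 called exons a direction. Other exons named in the text were chosen after their values were seen. Members and lists were chosen with earlier results of these data known. Python 3.11.15 with pandas 2.3.3, numpy 2.4.6 and scipy 1.17.1 was used. Some markers of the lists used to check the cell line are not reported here.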

Additional observations from a re-analysis of the deposited data

How the results depend on the processing

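No paired analysis was possible because each group is 1 pooled read set with no column per sample, and for the same reason no replicate could be left out. The limits below are counting limits only. The count of member exons called higher (9) lay between 6 and 12 in 12 of 13 alternatives. It was 2 when the inclusion share replaced Ψ in the difference. That alternative kept the deposited Bayes factor, which rests on Ψ, so a difference in the share itself was not judged. The member called lower (1, MAP4) was 0 with a minimum of 20 reads, with a Bayes factor of at least 100, with the inclusion share and with the 2-isoform likelihood before and after subtraction (differences of -0.448 and -0.458, as large as the deposited -0.44), and 2 with no minimum. Exons with intervals apart (10) were 6 with a minimum of 20 reads. In the wider lists, exons called higher (7) numbered 3 with a minimum of 20 reads, 13 with none, 11, 3 and 0 with Bayes factors of at least 5, 20 and 100, 4 with the inclusion share and 11 after subtraction, of which 5 are among the 7. Those called lower (2) numbered 7 with no minimum, 1 with Bayes factors of at least 20 and of at least 100, 0 with the inclusion share and 1 with the 2-isoform likelihood. With the inclusion share the difference was 0 for 8 of the 10 called exons and 0.118 for CEP57 and 0.154 for CLIP1. In the other event of the 235-nt PRC1 exon the difference was 0.33, and 0.38 for the 123-nt form. A minimum of 20 reads dropped the CEP57 and MAP4 exons and the 158- and 220-nt TBCE forms, which had fewer reads. Other causes were not tested.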
